A study of Macaca mulatta with 304 samples.

Results

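The question was whether whole blood of rhesus macaques (Macaca mulatta) given 10.7 Gy to the thorax differed from that of macaques given 9.8 Gy when the same days were compared. Animals with a library on each of Day 30, Day 40 and Day 60 were chosen from the sample labels, and the counts of their 3 libraries were summed, so that each animal was 1 replicate. This left 21 of 28 animals with 63 libraries, 12 animals (6 males and 6 females) in the lower dose (LD) group at 9.8 Gy and 9 animals (4 males and 5 females) in the higher dose (HD) group at 10.7 Gy. All 12 LD animals of the series qualified, but 7 of 16 HD animals did not, 4 because they had no library on Day 60 and 3 because they had none on Day 40. Each of the 21 animals also had a control library drawn 2 days before irradiation.

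According to the methods, these were healthy adults of the Chinese sub-strain, aged 3 to 5 years, that received 1 photon exposure of the thorax. All animals were given tramadol or buprenorphine in the weeks after irradiation. Dexamethasone, a synthetic glucocorticoid, was given to animals with rapid breathing, but the labels do not say which animals received it or when. The HD animals compared here are those still drawn on Day 60. Their last draw fell on Day 60 to 270 (median Day 71), with 4 animals last drawn on Day 60, and that of the LD group fell on Day 102 to 270 (median Day 166). Survival, treatment with dexamethasone and dose cannot be told apart here.

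Irradiation of the thorax injures the lung after a delay of weeks, a phase known as radiation pneumonitis, in which damaged tissue releases cytokines and recruits white cells. Neutrophils, the most abundant granulocytes, carry antimicrobial proteins and proteases in granules that are filled while the cells mature in bone marrow. Severe inflammation and glucocorticoids both draw neutrophils into the blood, and glucocorticoids also lower the number of circulating lymphocytes and induce a known set of genes in white cells. In bulk blood, fewer cells of a type and less RNA per cell cannot be told apart, so all values below describe the mixed blood sample.

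The window libraries held between 3888127 and 16238083 counts, and the sums held 15733630 to 22200222 counts (median 19183193) in LD animals and 17990984 to 31240698 (median 22365804) in HD animals, which were higher (exact permutation test, two-sided, p = 0.00789). Library names carry a number whose meaning the sources used here do not give. It was 0 in all Day 30 libraries and in 6 of 12 LD and 5 of 9 HD libraries on Day 40. On Day 60 it was 0 in 8 of 12 LD and 9 of 9 HD libraries, so part of the Day 60 contrast lies between libraries of different numbers. Among control libraries it was 0 in 0 of 12 LD and 2 of 9 HD animals. Changes from control at both doses therefore also lie largely between libraries of different numbers. No library was a copy of another. Defining markers of blood were present, with CD3E, CD79A, CD14, CSF3R and PPBP all measured, while the neutrophil elastase gene ELANE and the platelet gene PF4 did not pass the filter on low counts.

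Over the 3 days together, 383 of 13751 tested genes differed between the doses (edgeR quasi-likelihood test, with both a Benjamini-Hochberg adjusted p up to 0.05 and a change by 1.5 times or more, which holds for all genes called here). Of these, 302 (2.2% of genes tested) were higher and 81 (0.589%) were lower at 10.7 Gy. These shares are the background for the counts of gene groups over the window given below. Genes of neutrophil granules and of the S100 calcium binding proteins of neutrophils led the higher genes, together with receptors of the IL-1 and IL-18 family and with SOCS3, an inhibitor of cytokine signalling. Without the 4 HD animals last drawn on Day 60 the count was 200, and without LD animal B1504 it was 654, 505 higher and 149 lower.

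Of the single days, Day 60 alone held called genes. Compared on that day, a result chosen after the counts of single days had been seen, 3285 genes were called, 1519 higher (11%) and 1766 lower (12.8%) at 10.7 Gy. These shares are the background for the counts of gene groups on Day 60 given below. On Day 30 no gene was called by edgeR, with 521 genes at an unadjusted p under 0.05, and on Day 40 no gene was called, with 1701 at an unadjusted p under 0.05. The sum of Day 30 and Day 40 also gave 0 genes (1105 unadjusted). Before irradiation the same animals gave 0 genes (683 unadjusted), where DESeq2 called 2, POU2F2 and POU2AF1, a pair of B cell transcription regulators that were higher in the animals later given 10.7 Gy. The split of the Day 60 genes depended on scaling: TMM scaling called 1773 higher and 1280 lower, and DESeq2 called 1976 higher and 1207 lower. The median of all genes on Day 60 was -0.10 in log2 with upper quartile scaling and -0.02 with TMM.

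**Figure D1:**
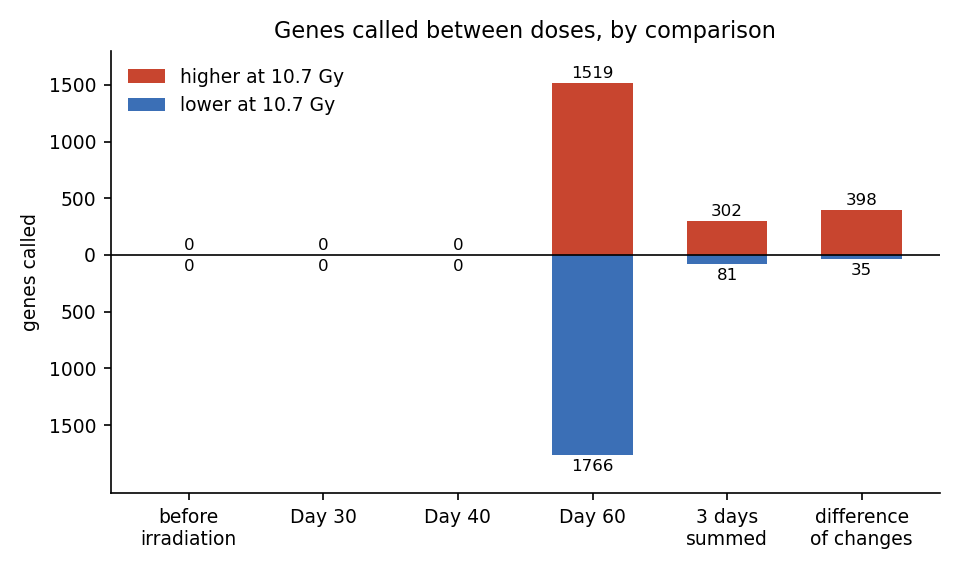
Number of genes called between the doses in each comparison, with genes higher at 10.7 Gy above the line and lower genes below it. By edgeR no gene was called before irradiation, on Day 30 or on Day 40, and 1519 were higher and 1766 lower on Day 60.

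Whether the difference changed between Day 30 and Day 60 was tested directly. Each animal's Day 60 library was set against its own Day 30 library, and this change differed between doses for 2719 genes, of which 1180 (8.58%) changed more upward and 1539 (11.2%) more downward at 10.7 Gy. In HD animals 2181 genes changed from Day 30 to Day 60, 1048 up (7.62%) and 1133 down (8.24%), and in LD animals 375 changed, 10 up (0.0727%) and 365 down (2.65%). Of 31 erythroid genes (hemoglobin synthesis and red cell membrane), 29 fell in LD animals and 22 fell in HD animals. With TMM scaling the dose contrast had 1469 upward and 977 downward genes, so that the direction of the majority turned. The dose contrast held 556 genes without the 4 HD animals last drawn on Day 60 and 895 in libraries with the number 0. Growth between Day 40 and Day 60 was not tested.

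A principal component analysis of the 84 libraries of these animals (log2 CPM, that is, counts scaled to library size, with a prior count of 2) was also compared by day. The first component held 18.5% of the variance. On Day 60 the LD mean was -18.9 ± 29.8 (SD, n = 12) and the HD mean was 45.4 ± 29.3 (n = 9), and 4 of 9 HD animals lay above the highest LD animal (exact permutation test, two-sided, p = 2.31e-04, Benjamini-Hochberg adjusted 0.00185 over 8 tests). On Day 40 the means were -10.1 ± 18.18 and 7.78 ± 23.3 (exact permutation p = 0.0651, adjusted 0.260). On Day 30 they were -0.44 ± 32.03 and -0.10 ± 21.0 and before irradiation -5.34 ± 26.3 and -6.64 ± 18.1, with exact permutation p of 0.979 and 0.905. The 4 HD animals last drawn on Day 60 lay between 10.4 and 92.6 on that day (median 32.9) and the other 5 between 6.48 and 80.8 (median 47.5). Without the former, 3415 genes were called on Day 60.

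**Figure D2:**
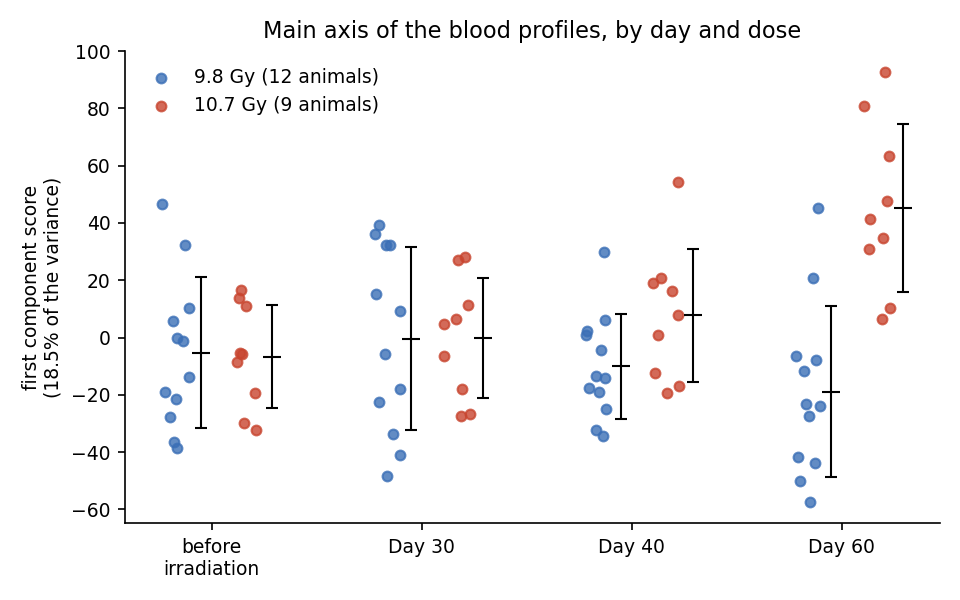
First component score of each library (points) by day and dose, with the mean and SD of each group beside them (12 animals at 9.8 Gy, 9 at 10.7 Gy). The groups lie over each other before irradiation and on Day 30, and on Day 60 the HD mean is 45.4 against -18.9 in LD animals.

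In profiles summed over the 3 days, the first component (22.04% of the variance) had a mean of -12.1 ± 24.7 in LD and 16.1 ± 11.02 in HD animals (exact permutation p = 0.00431). The second component (11.5%) did not separate the doses (means -4.33 ± 18.0 and 5.77 ± 16.1, exact permutation p = 0.202). On the leading component no HD animal lay above the highest LD animal, so the distributions overlapped although the means differed.

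SOCS3, which is induced by IL-6 and other cytokines and limits signalling through their receptors, separated the doses in every animal when the 3 days were summed. Over the 3 days its level was 13.4 to 40.3 CPM (median 26.4) in LD animals and 50.2 to 93.8 CPM (median 58.7) in HD animals, and the groups did not overlap. Its log2 difference was 1.26 ± 0.19 (SE, edgeR adjusted p = 0.00244). On Day 60 the LD animals lay at 9.38 to 46.6 CPM (median 18.0) and the HD animals at 44.2 to 197.6 CPM (median 84.04), a log2 difference of 2.24 ± 0.28, with 8 of 9 HD animals above all LD animals. Before irradiation 8 of 9 HD animals were already above the LD median of SOCS3, 1 of them above the highest LD animal. On Day 30 2 of 9 HD animals were above all LD animals. The gene is on chromosome 16 (74717689 to 74719374, minus strand, Mmul_10). Over the window only 4 genes (0.0291% of those tested) had every HD animal above every LD animal, SOCS3, DBNL, SLC25A33 and an unnamed locus, and only 2 genes (0.0145%), PM20D2 among them, had every HD animal below. These few were picked out by their values.

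On Day 60 alone, 21 genes (0.153%) had all HD animals above all LD animals and 22 (0.16%) had all below. The former included AZU1, a granule protein of neutrophils, the lysosomal gene NPC2 and TNFSF13, a ligand that acts on B cells and plasma cells. The latter included ETS1, a transcription factor of lymphocytes, and FUT8, which adds core fucose to glycoproteins. Before irradiation and on Day 30 no gene had separate groups.

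SOCS3 was counted with other regulators of cytokine signalling. Of 11 tested genes of this group 3 were higher and 0 lower over the window, SOCS3, SOCS1 and the repressor BCL6 (0.81), and 6 were higher on Day 60, with a group median of 0.60 in log2 against -0.10 over all genes. SOCS1, which restrains interferon and IL-2 family signals, lay at 15.6 to 29.0 CPM (median 18.9) in LD and 20.9 to 81.6 CPM (median 33.95) in HD animals, a log2 difference of 0.90 ± 0.19 (edgeR adjusted p = 0.00793). Most HD animals, 6 of 9, were above the highest LD animal. CISH and SOCS2, targets of STAT5, were not called on any of the days, and their log2 differences on Day 60 were 0.44 and -0.07.

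Neutrophil granule genes showed the largest differences. Of 16 tested members 11 were higher and 0 lower over the window, and 14 were higher and 0 lower on Day 60, where the group median was 2.62 in log2. MMP8, the collagenase of neutrophil granules, lay at 0.354 to 2.39 CPM (median 1.02) in LD and 1.59 to 43.5 CPM (median 2.39) in HD animals, with a log2 difference of 2.95 ± 0.59 (edgeR adjusted p = 0.00737). The groups overlapped, 4 of 9 HD animals were above the highest LD animal, and without HD animal B2003 the difference was 2.17. LCN2 (lipocalin 2), which binds bacterial siderophores, lay at 0.354 to 6.09 CPM (median 2.74) against 3.71 to 39.6 CPM (median 7.92), a log2 difference of 2.55 ± 0.46, with 6 of 9 HD animals above the LD range. These genes lie on chromosomes 14 (95993992 to 96007051) and 15 (12445748 to 12450081) of Mmul_10, both on the minus strand.

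MMP9, the gelatinase of neutrophil granules, was more abundant and more uniform. It lay at 37.1 to 238.6 CPM (median 143) in LD and 133.1 to 936 CPM (median 415) in HD animals, and 7 of 9 HD animals exceeded every LD animal (log2 difference 1.59 ± 0.29, edgeR adjusted p = 0.00570). The peptidoglycan binding protein PGLYRP1 had a log2 difference of 2.07 ± 0.51, the chitinase CHIT1 of 1.98 ± 0.37 and the surface antigen CD177 of 1.89 ± 0.40. The bactericidal protein BPI (1.37), the cathelicidin CAMP (0.93), resistin (RETN, 1.68) and haptoglobin (HP, 1.46) were also called. Lactoferrin (LTF, 1.04) and myeloperoxidase (MPO, 0.40) were not called over the window and were called on Day 60 (1.79 and 1.29), and ARG1 was not called on Day 60 (-0.75). The genes PRTN3, CTSG and CEACAM8 were under the filter on low counts, as was ELANE.

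Genes of mature neutrophils followed. Of 15 tested, 9 were higher and 0 lower over the window and 12 were higher on Day 60 (median 1.64). S100A9, a subunit of the calprotectin complex, lay at 55.1 to 678 CPM (median 208) in LD and 326 to 1496 CPM (median 777) in HD animals. Its log2 difference was 1.81 ± 0.34 (edgeR adjusted p = 0.00656), and 5 of 9 HD animals were above the highest LD animal. On Day 60 its level was 24.8 to 496 CPM (median 98.4) in LD and 222.9 to 4919 CPM (median 1335) in HD animals, a 10.3-fold difference of fitted levels with 8 of 9 HD animals above all LD animals. S100A8, its partner, and S100A12 (log2 differences 1.82 ± 0.35 and 1.70 ± 0.43) lie with it within a short stretch of chromosome 1 (97667429 to 97699439, Mmul_10). The formyl peptide receptors FPR1 (1.04) and FPR2 (1.25), the IgA receptor FCAR (1.21) and the IL-8 receptor CXCR1 (0.77) were called as well. CXCR2 (0.69) and the G-CSF receptor CSF3R (0.60) were not called by edgeR over the window, where DESeq2 called CXCR2, and were called on Day 60 (1.56 and 1.46). FPR1 and FPR2, and CXCR1 and CXCR2, are similar in sequence, so reads may be shared within each pair.

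The 5 defining neutrophil markers fixed for the check of cell types were summed. They took 514 to 4934 CPM (median 1609) in LD and 2771 to 14380 CPM (median 5918) in HD animals on Day 60, against 743 to 7853 (median 3007) and 1442 to 4634 (median 2696) before irradiation. The 4 measured of 5 markers of immature granules took 36.6 to 433 CPM (median 104.7) in LD and 116.6 to 1294 CPM (median 412) in HD animals on Day 60. How far the number of neutrophils accounts for the differences of single genes was not tested.

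Receptors of the innate response and of the IL-1 family were higher at 10.7 Gy. Of 22 tested, 10 were higher and 0 lower over the window and 17 were higher on Day 60 (median 1.34). IL18RAP, a chain of the IL-18 receptor, lay at 1.42 to 9.91 CPM (median 4.58) in LD and 5.05 to 55.4 CPM (median 23.9) in HD animals, with 7 of 9 HD animals above the highest LD animal. Its log2 difference was 2.19 ± 0.38 (edgeR adjusted p = 0.00504), and that of IL18R1, the other chain, was 1.51. The decoy receptor IL1R2 (1.75), the IL-33 receptor IL1RL1 (1.76), the inflammasome sensor NLRC4 (1.38), the lectin CLEC4E (1.55) and the receptor antagonist IL1RN (1.04) were called. IL1B itself (0.56) and NLRP3 (0.06) were not. Outside this group GPR84, a fatty acid receptor of myeloid cells, lay at 0.177 to 1.85 CPM (median 0.702) in LD and 1.03 to 6.24 CPM (median 2.46) in HD animals, a log2 difference of 1.90 ± 0.33.

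Monocyte genes moved less. Of 14 tested, 2 were higher over the window, CD163 and LYZ, and 8 were higher and 1 lower (CX3CR1, -0.82) on Day 60. CD163, the scavenger receptor for hemoglobin and haptoglobin, lay at 32.8 to 83.8 CPM (median 52.8) in LD and 41.5 to 197.6 CPM (median 117.5) in HD animals (log2 difference 1.06 ± 0.22, edgeR adjusted p = 0.00779). Its change from Day 30 to Day 60 differed between doses by 2.35 ± 0.35 (edgeR adjusted p = 9.42e-04), and it rose in 9 of 9 HD and 5 of 12 LD animals. RENBP, an enzyme of sialic acid metabolism, rose in 9 of 9 HD and 1 of 12 LD animals (1.25 ± 0.17). The call of LYZ (lysozyme, 0.72 ± 0.23, edgeR adjusted p = 0.0499) held in only 5 of 21 fits that left out 1 animal each and was lost with TMM scaling.

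Of 14 complement genes, 2 were higher over the window, the anaphylatoxin receptors C3AR1 (1.16 ± 0.25) and C5AR1 (0.98 ± 0.22). On Day 60 7 were higher (11% of all genes, group median 1.04), including properdin (CFP, 1.32), factor D (CFD, 1.39) and C1QA (1.27). C3AR1 lay at 7.85 to 30.2 CPM (median 17.2) in LD and 16.7 to 71.1 CPM (median 40.5) in HD animals. The inhibitors CD46 and CD55 were not called (-0.01 and 0.40 on Day 60), and CD59, another inhibitor, was higher on that day (0.63).

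Genes known to respond to glucocorticoids were higher at 10.7 Gy. Of 20 tested, 7 were higher and 0 lower over the window, and 18 were higher and 0 lower on Day 60, with a median of 1.22. The 7 genes were PER1, ZBTB16, DUSP1, IL1R2, CD163, IRS2 and NFKBIA. FKBP5 and TSC22D3, which are among the most direct targets of the glucocorticoid receptor, were not called over the window (0.56 and 0.21) and were called on Day 60 (0.93 and 0.75). DUSP1, a phosphatase that ends MAP kinase signals, lay at 116.9 to 435 CPM (median 228) in LD and 218 to 758 CPM (median 540) in HD animals (1.15 ± 0.27). PER1, also a clock gene, ran from 32.2 to 61.4 CPM (median 47.3) in LD and from 34.9 to 171 CPM (median 107.9) in HD animals, so that some HD animals lay within the LD range and 5 of 9 above it. Several members are also induced by inflammation or expressed by neutrophils and monocytes, and the part of dexamethasone in these values was not tested.

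**Figure D3:**
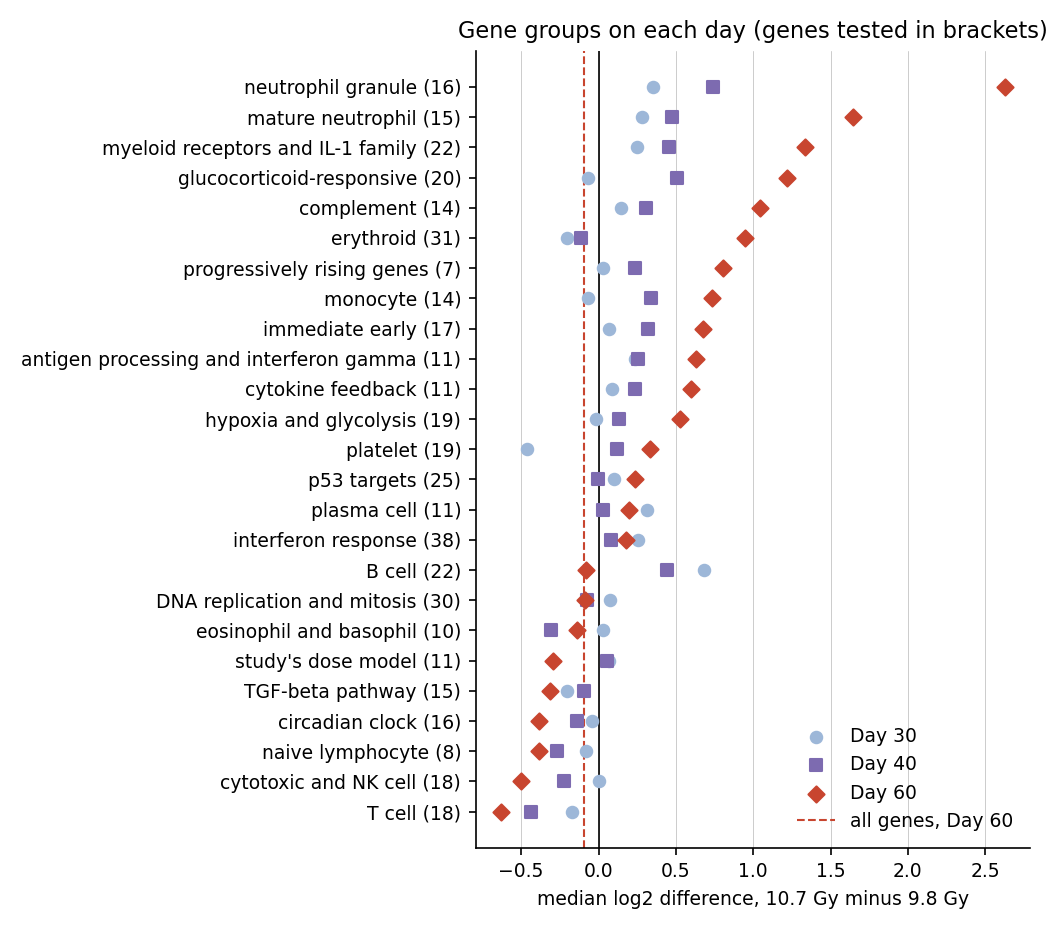
Median log2 difference between 10.7 Gy and 9.8 Gy of each gene group on Day 30, Day 40 and Day 60, with the number of genes tested in brackets and the median of all genes on Day 60 as a dashed line. The neutrophil granule median rises from 0.35 on Day 30 and 0.74 on Day 40 to 2.62 on Day 60, and the T cell median falls from -0.17 to -0.63.

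Some T cell genes were lower at 10.7 Gy. Of 18 tested, 2 were lower over the window, CD3G of the T cell receptor complex (-0.62) and the thymocyte selection gene THEMIS (-0.63), and 11 were lower and 0 higher on Day 60, with a median of -0.63. In the change from control no T cell gene differed between the doses by edgeR, TMM scaling or DESeq2. The count on Day 60 was 8 with TMM scaling and 7 with DESeq2. CD28, the costimulatory receptor, lay at 55.7 to 184 CPM (median 91.6) in LD and 15.6 to 68.7 CPM (median 35.01) in HD animals on Day 60, with 7 of 9 HD animals below every LD animal (-1.22 ± 0.24, edgeR adjusted p = 0.00107). The IL-7 receptor IL7R (-0.999 ± 0.20) was also lower on that day. CD8A (-0.26) and CD4 (-0.47) were not called. The 5 T cell markers summed to 434 to 1011 CPM (median 830) in LD and 255 to 701 CPM (median 434) in HD animals on Day 60.

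Of 18 cytotoxic and NK cell genes edgeR called none over the window, where DESeq2 called SH2D1B lower (-0.74). On Day 60 8 were lower and 1 was higher, where 12.8% and 11% of all genes were. With TMM scaling 7 were lower and 2 higher on Day 60, and with DESeq2 6 and 2. SH2D1B, an adaptor of NK cells, had the lowest value (-1.57 ± 0.25), with 8 of 9 HD animals below the LD range, with KLRB1 at -1.28 and EOMES at -0.83, whereas the granule genes NKG7 (-0.19), PRF1 (-0.43) and GZMB (-0.46) were not called. Of 8 genes of naive lymphocytes 2 were lower on Day 60 (12.8% of all genes), IL7R and LEF1. Of 22 B cell genes edgeR called none over the window, where DESeq2 called TNFRSF13C higher (0.82). RALGPS2 was lower on Day 60 (-0.63), a call that was lost with both TMM scaling and DESeq2. Most B cell genes fell in HD animals between Day 30 and Day 60, 19 of 22 (8.24% of all genes) against 0 in LD animals (2.65%), and this change was more downward at 10.7 Gy for 18 (11.2%), of which CD79A lost its call with TMM scaling. In this group the HD animals had started higher, with a median difference of 0.57 before irradiation and 0.68 on Day 30, neither with a gene called by edgeR.

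**Figure D4:**
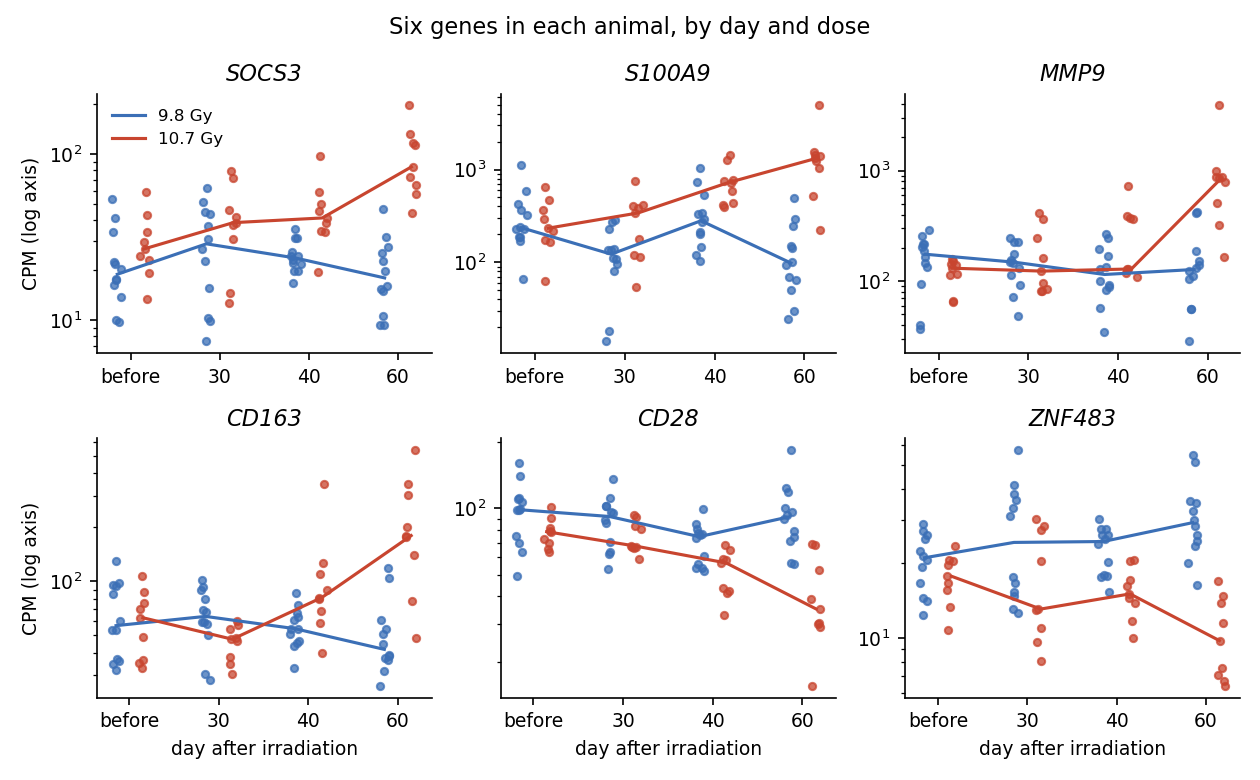
CPM (log axis) of 6 genes in every animal before irradiation and on Day 30, 40 and 60, with a line through the group medians (blue 9.8 Gy, red 10.7 Gy). On Day 60 the median of SOCS3 is 84.04 in HD and 18.0 in LD animals, and that of CD28 is 35.01 and 91.6.

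The lower genes of the window were fewer and weaker. Their leading members were DSP (desmoplakin), ARHGEF16, BMPR1B (a BMP receptor), LYZL6, NECAB1, TSHZ3, ITGA1, PLXNA2, MAMDC2 and ZNF483. NECAB1 was called in 10, MAMDC2 in 12 and ARHGEF16 in 9 of 21 fits without 1 animal. DSP lay at 0.55 to 47.1 CPM (median 1.93) in LD and 0.14 to 1.73 CPM (median 1.36) in HD animals, and its log2 difference of -2.45 ± 0.74 was lost in 10 of 21 fits that left out 1 animal each, among them those without LD animals B1003 or B1505 (-2.56 to -1.12 over all fits). ARHGEF16 (-1.99 ± 0.63) had differed by -2.01 before irradiation. ITGA1, the collagen receptor chain of tissue-homing lymphocytes, lay at 21.4 to 67.1 CPM (median 38.6) in LD and 14.4 to 30.0 CPM (median 19.4) in HD animals, with 6 of 9 HD animals below all LD animals (-0.94 ± 0.18, edgeR adjusted p = 0.00696). TSHZ3, a zinc finger homeobox gene, lay at 1.71 to 4.26 CPM (median 2.50) in LD and 0.649 to 2.34 CPM (median 1.22) in HD animals, with 8 of 9 below (-0.97 ± 0.23). ZNF483, a zinc finger gene, lay at 15.8 to 44.8 CPM (median 25.6) against 8.70 to 18.7 CPM (median 13.7), with 5 of 9 below (-0.88 ± 0.18).

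The 81 lower genes had in part differed before irradiation. Their median log2 difference in the control libraries was -0.23, and 75 of 81 had the same sign there, while the 302 higher genes had a median of -0.01 with 145 of 302 of the same sign. By edgeR none of them was called before irradiation, and DESeq2 called POU2F2, which is among the higher genes (0.91, DESeq2 adjusted p = 0.0183).

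Set against its own control, the change differed between the doses for 433 genes, of which 398 (2.89%) rose more and 35 (0.255%) fell more or rose less at 10.7 Gy. This comparison uses the same window libraries as the one above, so the comparisons are not independent. In HD animals 1120 genes changed from control, 845 up (6.15%) and 275 down (2%), and in LD animals 496 changed, 399 up (2.9%) and 97 down (0.705%). Of 16 neutrophil granule genes 12 had a larger change at 10.7 Gy, and the group's median change was 1.26 in HD animals (13 genes up) and -0.20 in LD animals (0 genes called). In this group the HD animals had started lower, with a median difference of -0.58 before irradiation and no gene called by edgeR. That start enters the difference of changes. The window difference, which does not use the controls, had a group median of 1.41.

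LCN2 rose by 2.74 ± 0.33 in HD animals, with 9 of 9 above their own control, and changed by -0.17 in LD animals, with 5 of 12 above (difference 2.91 ± 0.43, edgeR adjusted p = 3.28e-04). MMP8 (difference 2.89 ± 0.70), PGLYRP1 (2.52 ± 0.33), S100A8 (2.37 ± 0.46) and S100A12 (2.26 ± 0.48) had the next largest differences. In each of these 5 genes all 9 HD animals were above their own control. Of 15 mature neutrophil genes 11 rose more at 10.7 Gy, and of 20 glucocorticoid-responsive genes 8 did (2.89% of all genes). The mature neutrophil genes had also started lower in HD animals, with a median difference of -0.49 before irradiation. PFKFB3 and PFKFB4, regulators of glycolysis, were among 4 of 19 hypoxia and glycolysis genes with a larger change at 10.7 Gy (1.05 ± 0.19 and 1.19 ± 0.17). CSTA, a protease inhibitor of myeloid cells, rose at both doses, by 1.30 in LD and 2.67 in HD animals, and the difference was not called (edgeR adjusted p = 0.0609), although DESeq2 called it (1.35).

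**Figure D5:**
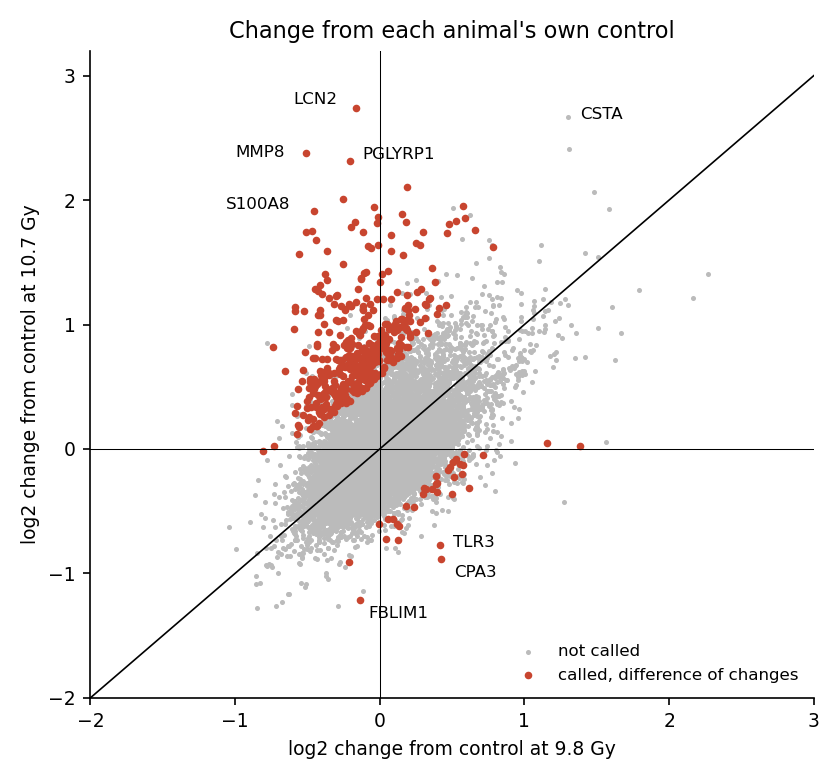
Log2 change from each animal's own control over the window at 9.8 Gy (horizontal) and 10.7 Gy (vertical), 1 point per gene, with the line of equal change. Genes called for the difference of changes are red, and 398 of 433 lie above the line, with LCN2 at 2.74 in HD and -0.17 in LD animals.

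Among the genes that went lower, CPA3, a protease of basophils and mast cells, fell by 0.88 on the log2 scale in HD animals, with 1 of 9 above control, and changed by 0.43 in LD animals (difference -1.31 ± 0.32, edgeR adjusted p = 0.0144). The basophil genes MS4A2 and FCER1A were not called in this test (-0.67 and -0.43) and were lower on Day 60 (-1.50 and -1.62), as was CPA3 (-1.58). In the same list of 10 tested genes ADGRE1, an adhesion receptor of myeloid cells, had a larger change at 10.7 Gy (0.85), which was lost with TMM scaling, and ADGRE1 (1.16) and ALOX15 (1.14) were higher on Day 60. TLR3, the receptor for double-stranded RNA, fell by 0.77 in HD animals and changed by 0.42 in LD animals (difference -1.19 ± 0.22). FBLIM1 (-1.08 ± 0.27), the Notch inhibitor NRARP (-0.86 ± 0.25) and LRRN3 (-0.85 ± 0.23) completed the 5 lowest, and NRARP was called in 9 of 21 fits without 1 animal. ZNF483 was called in this comparison too (-0.64 ± 0.17), but BMPR1B (-0.41), PLXNA2 (-0.30) and ARHGEF16 (-0.00) were not, so their window difference was not a difference of change past the threshold.

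Erythroid genes rose from control at both doses, 17 of 31 in LD (2.9% of all genes) and 12 of 31 in HD animals (6.15%). Of these genes 1, the mitochondrial iron importer SLC25A37, differed in change by edgeR (0.79). DESeq2 also called HBA, in the opposite direction (-1.63). On Day 60, 8 erythroid genes were higher and 2 lower at 10.7 Gy, where 11% and 12.8% of all genes were. The lower ones were HBA and HBB (-2.84 and -2.17, the latter lost with TMM scaling). Globin transcripts are a target of the depletion step of the library kit, and alpha globin genes are near-identical copies, so these values are uncertain. Of 38 interferon response genes 11 rose in HD animals (6.15% of all genes) and 2 in LD animals (2.9%). No member differed in change, and only IRF7 differed over the window (1.02 ± 0.32, called in 10 of 21 fits without 1 animal and 0.59 without HD animal B2504). ISG15 lay at 1.10 to 36.1 CPM in HD animals (median 3.94) and at 1.72 to 9.26 CPM (median 3.00) in LD animals and was not called.

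Several groups had few or no genes called over the window. None of 25 p53 targets, the genes that respond to DNA damage, was called over the window by edgeR or DESeq2, and their median was 0.00. On Day 60 4 were higher and 2 lower, where 11% and 12.8% of all genes were. CDKN1A lay at 0.84 and MDM2, not called, at 0.44. None of 30 genes of DNA replication and mitosis, 15 of the TGF-beta pathway, 19 of platelets and 11 of plasma cells was called over the window by edgeR or DESeq2. On Day 60 2 of the 15 TGF-beta genes were higher and 2 lower, where 11% and 12.8% of all genes were. TMM scaling called 2 higher and 1 lower, and DESeq2 called 2 higher and 0 lower. SMAD7, an inhibitor of TGF-beta signals, was among the lower genes (-0.68), a call that was lost with DESeq2. Over the window the antigen processing group had 1 of 11 higher (SOCS1, counted above, with CIITA added by TMM scaling and DESeq2). The immediate early group had 1 of 17 higher (DUSP1), the hypoxia and glycolysis group 2 of 19, and the circadian group 1 higher (PER1) and 1 lower (RORA) of 16. More differed on Day 60, where 11% of all genes were higher. Antigen processing then had 5 of 11 higher (median 0.63), immediate early 7 of 17 (0.67) and hypoxia and glycolysis 7 of 19 (0.52), each with 0 lower. Of 10 eosinophil and basophil genes none was called over the window by edgeR or DESeq2. Of 7 genes singled out earlier for rising with time 3 were higher over the window (CSTA 1.23, PTX3 1.36, ALOX5AP 0.95). On Day 60 3 of the 7 were higher and 0 lower, with a median of 0.81.

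Of 11 tested genes from the study's own model of dose, 1 was called over the window, the semaphorin receptor PLXNA2 (-0.94 ± 0.25). Its level was 2.27 to 21.2 CPM (median 12.97) in LD and 4.02 to 10.1 CPM (median 6.67) in HD animals. The paper trained that model on controls and earlier draws of this series and tested it on later days. Animals and controls are therefore shared, and these genes are no independent evidence. On Day 60 2 of the 11 genes were higher and 3 lower, where 11% and 12.8% of all genes were. TMM scaling and DESeq2 gave the same counts. ABLIM1 was under the fold threshold over the window (-0.45, edgeR adjusted p = 0.0238) and lower on Day 60 (-1.03). KLF4, which rose from control by 1.18 at both doses, did not differ between them past the threshold (0.33).

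The sexes were compared by an interaction of sex and dose. No gene was called by edgeR or DESeq2 (1441 and 1592 at an unadjusted p under 0.05), with 4 to 6 animals in each of the 4 groups. Per gene, the 95% interval of the dose difference between sexes spanned a median of 0.52 in log2 to either side, so moderate differences were not detectable. The smallest unadjusted p in each direction belonged to TRIM5, AQP9 and UPP1, with a larger dose difference in males (0.84, 1.35 and 1.80), and to ERAP2, ASB1 and SYT14 (-0.92, -0.63 and -2.02).

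The 3 HD animals that were drawn on Day 60 but lacked Day 40 were not among the 21. On Day 60 they had SOCS3 at 20.8, 37.2 and 106.7 CPM, S100A9 at 78.5, 292 and 1355 CPM, and MMP9 at 72.1, 156 and 321 CPM. Their medians lay between those of the LD animals (18.0, 98.4 and 127.5) and of the 9 HD animals (84.04, 1335 and 851). With them, 2519 genes were called on Day 60 (1277 higher and 1242 lower).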

How the data were processed

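Whole-blood RNA was sequenced from stranded total RNA libraries depleted of ribosomal RNA. The authors deposited a table of raw gene counts (21070 genes), trimmed with cutadapt 2.10, aligned with STAR 2.7.6a and counted with Subread 2.0.1 per the labels and methods, and a table of normalized log2 values (16730 genes). Whether counting used strand is not given in the sources used here. Counts of each animal's Day 30, Day 40 and Day 60 libraries were summed, so deeper libraries weigh more. Genes with at least 3 counts in 80% of samples (13751) were tested with edgeR 4.0.16 (quasi-likelihood, upper quartile scaling, two-sided) in R 4.3.3, and the threshold was an adjusted p of 0.05 with a fold of 1.5. CPM are counts scaled to library size, and log2 CPM used a prior count of 2. Changes from control and from Day 30 to Day 60 used the animal as a block, since the libraries of a pair come from the same animal; deviations of an animal's window sum and control correlated at 0.179 to 0.833 (21 of 21 over 0.1). Standard errors are those of the fitted log2 differences. Exact permutation tests of component scores were two-sided, over all assignments of 12 and 9 animals. Alternatives used TMM, DESeq2 1.42.0, limma 3.58.1 on the deposited log2 values, other filters, sex as a covariate, single days and leaving out each animal. Scripts were tested on simulated counts. Genes described with levels were the most changed in each direction, up to 10 for the dose difference and 5 for the difference of changes, the 2 members of each gene list with the smallest p, the study's dose genes, and for the other contrasts the 3 with the smallest p in each direction. Further list members were named for their known roles or after their values were seen. The animals and gene lists were chosen with earlier results of these data known. Some genes are not reported here.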

Additional observations from a re-analysis of the deposited data

Results flagged for a closer look

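Among 30 groups of HD animals' levels examined with Dixon's test, 3 held an animal far from the rest over the 3 days. The rate by chance of about 1 in 20 assumes a normal distribution, which levels in CPM need not follow. No comparison with that rate is therefore drawn. The highest CHD5 level was 18.6 CPM against a median of 0.845, that of PGLYRP1 was 103.4 CPM against 26.6, and that of S100A12 was 11.7 CPM against 4.51. CHD5, a chromatin remodeller, was the only one of the 3 whose dose difference (2.19 ± 0.61, edgeR adjusted p = 0.0294) was lost when single animals were left out, namely LD animal B1006 or HD animals B2001 or B2501 (1.15 to 2.40 over the 21 fits). The change from control differed between the doses for 433 genes by an interaction test. The change from Day 30 to Day 60 differed between the doses for 2719 genes by the same kind of test.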

How the results depend on the processing

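The dose difference of 383 genes became 0 on Day 30 alone, 0 on Day 40 alone, 0 with Day 30 and Day 40 summed and 3285 on Day 60 alone. It became 200 without the HD animals last drawn on Day 60, and 261 to 654 when 1 animal was left out, the highest without B1504. TMM scaling (383), DESeq2 (476), limma (352), other filters (354 and 372), sex as a covariate (400), libraries with the number 0 (265) and every animal with at least 1 of the days (407) stayed within 1.5 times. The difference of changes (433 genes) was 0 on Day 30 alone, 3171 on Day 60 alone and 324 to 623 without 1 animal. Without the animal as a block it was 3 (EMC8, LCN2 and MMP8), the change from control was 245 genes at 9.8 Gy and 519 at 10.7 Gy. The contrast of Day 60 with Day 30 between doses, 19.8% of genes tested, was 0.960% without the block, 6.51% in libraries with the number 0 and 4.04% without the HD animals last drawn on Day 60. The Day 60 difference was 2582 to 3815 without 1 animal. Before irradiation DESeq2 called 2 genes. The first component of the summed profiles differed between doses by 28.2, that of Day 30 alone by 4.31 and that of Day 60 alone by 67.8. Each was computed from its own profiles, so these are different axes and not 1 measure. On Day 30 alone CD163 (-0.50), PER1 (-0.21) and RENBP (-0.016) had the opposite sign. The cause of these differences was not tested. Day 60 as a result of its own, Day 30 and Day 40 summed, the fits without animals last drawn on Day 60 and every animal on Day 60 were chosen after seeing the data. Depth limits genes of few counts, such as MMP8 and S100A12, which had 0 CPM in at least 1 LD library on Day 60.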

Other observations

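Of 16 tested genes of the circadian clock, 4 were lower and 2 were higher at 10.7 Gy on Day 60, where 12.8% and 11% of all genes were. NR1D2, a repressor of the clock, lay at 58.9 to 132.6 CPM (median 92.2) in LD and 22.9 to 75.4 CPM (median 40.8) in HD animals, with 7 of 9 HD animals below all LD animals (-1.02 ± 0.18, edgeR adjusted p = 6.14e-04). CRY1 (-0.73), CLOCK (-0.63, lost with TMM scaling and DESeq2) and RORA (-1.31) were lower on that day, NFIL3 (1.25) was higher, and PER2 (0.20) and ARNTL (0.06) were not called. The hours of the draws were not used here.

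RAB30, a small GTPase, was higher on Day 60 than on Day 30 in 12 of 12 LD and 1 of 9 HD animals (difference -1.98 ± 0.29, edgeR adjusted p = 8.24e-04). ZBTB10 moved up in 10 of 12 LD and 0 of 9 HD animals (-1.33 ± 0.21), and PRKRA, an activator of the kinase PKR, in 9 of 12 and 0 of 9 (-1.12 ± 0.18).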
